A study of Mus musculus with 6 samples.

Results

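The 9 genes described here, Serpina3n, Lcn2, C1ra, C1s1, Serping1, C4b, C2, C3 and Cfb, encode complement proteins, the inhibitor of the first complement enzyme and a pair of acute phase proteins. They were taken by symbol from the 48401 gene rows of each library, and all 9 symbols had a row. The libraries came from total RNA of L4/5 dorsal root ganglia (DRG), which hold the cell bodies of the sensory neurons of the hind limb together with glia, vessels, fibroblasts and macrophages. The donors were male C57BL/6J mice aged 8 weeks that had received small interfering RNA by the intrathecal route. In 3 libraries the mice had received siCLAP, an siRNA against CLAP, a long intergenic noncoding RNA, and in the other 3 siNC, taken here as the control. All 6 libraries thus share strain, sex, age and an intrathecal siRNA injection, and no group without an injection was analysed here. The level of CLAP was not analysed here, so the knockdown was not checked. The labels do not say whether libraries came from separate mice or from pools, so p-values measure the spread between these libraries only.

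Complement is a cascade of plasma and tissue proteins that tags surfaces for removal. In its classical route the proteases C1r and C1s, held on C1q, cleave C4 and C2, whose fragments form an enzyme that cleaves C3. In the alternative route factor B takes the place of C2, and C1 inhibitor, the product of Serping1, blocks C1r and C1s. Serpina3n and lipocalin 2 (Lcn2) are secreted acute phase proteins, released by liver and by other tissues during inflammation, and Serpina3n is known in mouse DRG as an inhibitor of leukocyte elastase that is induced after nerve injury. C3, factor B, C2, C4 and C1 inhibitor are also known to be induced by interferons or other cytokines in many cell types.

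Library totals ran from 25982046 to 39239131 expected counts in siCLAP and from 21386768 to 46317735 in siNC, and libraries are called siCLAP-1 to siCLAP-3 and siNC-1 to siNC-3. All 14 genes of a sensory neuron list were detected above a mean TPM of 1, with summed levels of 19524 to 20144 TPM in siCLAP and 18707 to 19264 TPM in siNC. TPM corrects read counts for transcript length and for the size of the library. The hepatocyte markers Apoa1 and Serpina1a were at 0 in every library, and Alb had at most 1 count in any of them. The other genes of this 8-gene list included 2 above the filter, summing to 13.3 to 14.7 TPM in siCLAP and 13.1 to 16.9 TPM in siNC. The libraries siCLAP-2 and siNC-3 stood apart in type I interferon response genes. The 29 tested genes of that 30-gene list summed to 1216, 1784 and 1332 TPM in siCLAP libraries 1 to 3, against 1292, 1281 and 1823 TPM in siNC libraries 1 to 3. Results below are therefore also given without these libraries. In bulk tissue a smaller number of cells of a type and less RNA per cell cannot be told apart.

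Levels of the 9 transcripts spanned a wide range (mean ± SD over all 6 libraries). Serpina3n was the most abundant at 407 ± 70.1 TPM, followed by Serping1 at 185 ± 16.8 TPM and C4b at 41.5 ± 9.51 TPM. These 3 did not overlap each other in any library. C1ra (3.87 ± 1.05 TPM), C1s1 (3.30 ± 0.945), Cfb (3.19 ± 0.864), C2 (3.14 ± 0.796), C3 (2.21 ± 0.848) and Lcn2 (1.67 ± 0.613) followed. Among these 6, each gene overlapped the next in range. Within libraries, C1ra was above C1s1 and C2 above C3 in all 6, with C2 and C3 nearly level in siCLAP-1. The other neighbours changed order between libraries, so the order as a whole is not firm. Per length, C4b was 12.6 to 23.6 times as abundant as C3 in the siCLAP libraries and 20.9 to 26.7 times in the siNC libraries.

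**Figure D1:**
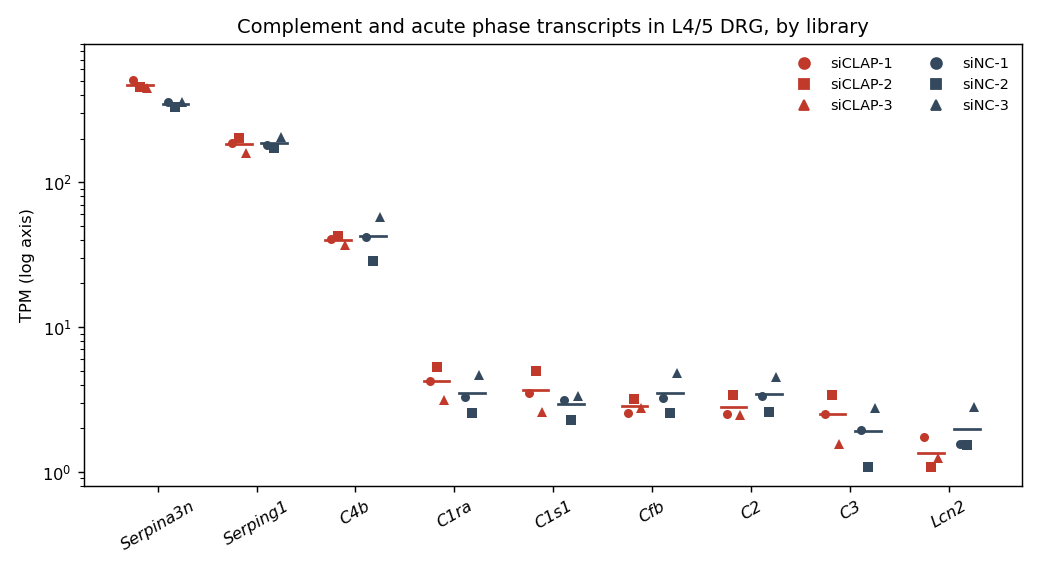
TPM of each gene in each library on a log axis, siCLAP (red) left of siNC (blue), with the group mean as a line and the replicate number as the symbol. Serpina3n lies near 400 TPM with its groups apart, and C1ra, C1s1, Cfb, C2, C3 and Lcn2 lie between 1 and 6 TPM with overlapping groups.

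In the comparison of siCLAP with siNC, which asks what differs in the DRG after siRNA against CLAP, 1 of the 9 genes passed edgeR's quasi-likelihood test at an adjusted p under 0.05, beside 0.293% of all 19141 genes tested. This was Serpina3n, which rose, as did 0.0731% of all genes. The other 8 did not pass in either direction, and none of these 8 had an unadjusted p under 0.05, beside 17.0% of all genes. The groups did not overlap for 1 of the 9, beside 21.5% of all genes. Estimates were positive for 4 of the 9 and negative for 5, with a median log2 fold change of −0.01 (all genes: −0.002). The median size of the estimates was 0.34 for the 9 and 0.11 for all genes. Their median standard error was also larger, at 0.21 against 0.093.

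Serpina3n encodes a secreted inhibitor of serine proteases. It stood at 506, 452 and 444 TPM in siCLAP libraries 1 to 3, against 355, 329 and 356 TPM in siNC libraries 1 to 3. Every siCLAP library was above every siNC library, with siCLAP-1 the highest. The means were 467 ± 33.7 TPM in siCLAP and 347 ± 15.5 TPM in siNC (SD, n = 3 libraries each), and edgeR's quasi-likelihood test placed siCLAP 1.36-fold higher (log2 fold change 0.45 ± 0.06 SE, adjusted p = 0.0215). This gene had already stood out in an earlier analysis of these libraries. The estimate stayed between 0.34 and 0.50 in all 19 alternatives, where 0.34 is that of all Serpina3 rows summed. With 1 library left out it was 0.38 to 0.49. The call depended on single libraries, with an adjusted p of 0.111 without siCLAP-1 and 0.104 without siNC-3. It was also lost with limma on log2(TPM + 0.5), at an adjusted p of 0.157. Without siNC-3 and siCLAP-2, the libraries high in interferon genes, it stood at 0.49 (adjusted p = 0.0446).

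Because Serpina3n lies in a cluster of paralogs on chromosome 12, at chr12:104406729-104414329 (plus strand, mm10, GENCODE M21), the family was compared. Only 1.46% of its transcripts' 75-base windows also occur in the transcripts of another gene. Serpina3g, a paralog that inhibits cathepsins, had 136, 135 and 128 TPM in the siCLAP libraries, against 130, 138 and 129 TPM in the siNC libraries, a log2 fold change of 0.02 ± 0.05 (−0.01 without siCLAP-2 and siNC-3, −0.05 without siNC-1 and siNC-3). The ratio of Serpina3n to Serpina3g was 3.72, 3.34 and 3.46 in siCLAP, against 2.73, 2.39 and 2.77 in siNC. The groups did not overlap in this ratio, and the exact two-sided permutation p was 0.1, the smallest that 3 against 3 libraries can give (0.3 after Benjamini-Hochberg adjustment over 3 ratios). Because Serpina3g was nearly level, this ratio mainly restates the known difference in Serpina3n and is no separate support for it. The less abundant Serpina3c and Serpina3i stood at 0.42 ± 0.15 and 0.37 ± 0.13 and did not pass (adjusted p = 0.194 and 0.196, edgeR). Serpina3n was the 1 of 5 tested family members that passed. With all Serpina3 rows summed, a total made up mostly of Serpina3n, the log2 fold change was 0.34 (adjusted p = 0.0276, edgeR). The promoter of Serpina3n is shown because it belongs to the gene that changed. It spans chr12:104406458-104406757 (plus strand, RefSeq, GRCm38.p6) from 250 bases before to 50 after the start.

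Serpina3n: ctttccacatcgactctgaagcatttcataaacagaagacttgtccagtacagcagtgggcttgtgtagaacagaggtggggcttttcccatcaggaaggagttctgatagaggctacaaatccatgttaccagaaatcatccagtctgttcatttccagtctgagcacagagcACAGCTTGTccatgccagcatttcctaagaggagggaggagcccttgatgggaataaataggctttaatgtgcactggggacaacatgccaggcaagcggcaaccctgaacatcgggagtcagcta

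The capitals mark the match to ACANNNTGT, a core of glucocorticoid receptor sites, found at positions −76 to −68 from the start. This motif occurs in 6.85% of 32851 mouse promoters of the same length. The window held no match to TTCNNNGAA (the site of STAT dimers, 8.30% of promoters), the core of interferon-stimulated response elements (GAAA, NN and GAAA, 3.44%), TTGCNNAA (a core of C/EBP sites, 10.8%) or the kappa B motif (8.46%), all searched on both strands. A match in such a window is a description of letters and not a shown binding site.

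Lcn2 encodes a lipocalin that binds iron-carrying siderophores and is stored in neutrophil granules. It was the least abundant of the 9, with 1.74, 1.09 and 1.26 TPM in siCLAP libraries 1 to 3, against 1.55, 1.54 and 2.82 TPM in siNC libraries 1 to 3, which rest on 10 to 25 counts per library. The groups overlapped through siCLAP-1, and siNC-3 was the highest library. The log2 fold change was −0.40 ± 0.32 (edgeR, adjusted p = 0.563), and it was −0.01 without siNC-3 and siCLAP-2 and −0.13 without siNC-3. Neutrophil markers were low in all libraries. Only S100a8, S100a9 and Ngp of an 11-gene neutrophil list passed the level filter, and their summed level was 3.48, 0.434 and 1.09 TPM in the siCLAP libraries, against 3.86, 4.07 and 10.3 TPM in the siNC libraries, with S100a8 at 0 in siCLAP-2. Every siCLAP sum was below every siNC sum, but S100a8, S100a9 and Ngp had at most 14.5, 24.5 and 25 counts in any library. The log2 fold changes were −1.24 for S100a8, −1.75 for S100a9 and −1.43 for Ngp, and none passed (edgeR, adjusted p = 0.194 to 0.396). Below the filter, Camp, Ltf, Mpo, Elane, Retnlg and Mmp8 also averaged lower in siCLAP. Their means were 0.0615 to 0.594 TPM in siCLAP and 0.208 to 1.08 TPM in siNC. Ly6g (0.240 TPM in siCLAP, 0.0445 TPM in siNC) and Cxcr2 (0.0109 and 0.00674 TPM) went the other way. The part of these neutrophil markers in the level of Lcn2 was not tested. Slc22a17, a receptor for lipocalin 2, stood at 0.02 ± 0.04.

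C1ra and C1s1 encode the proteases C1r and C1s. C1ra had 4.27, 5.31 and 3.14 TPM in siCLAP libraries 1 to 3, against 3.27, 2.55 and 4.68 TPM in siNC libraries 1 to 3. C1s1 had 3.52, 4.97 and 2.57 TPM in the siCLAP libraries, against 3.13, 2.27 and 3.36 TPM in the siNC libraries. For both genes siCLAP-2 was the highest library and siNC-2 the lowest, and the groups overlapped. The log2 fold changes were 0.34 ± 0.23 and 0.37 ± 0.22 (edgeR, adjusted p = 0.477 and 0.419). They depended on single libraries, at 0.16 and 0.12 without siCLAP-2 and at 0.14 and 0.21 without siNC-2. Without siNC-3 and siCLAP-2 together they stood at 0.38 and 0.21. An interval of 2 standard errors reached from −0.12 to 0.79 for C1ra and from −0.07 to 0.82 for C1s1. The ratio of C1ra to C1s1, whose proteins act together in equal number, was 1.17 ± 0.0864 in siCLAP and 1.19 ± 0.182 in siNC (exact permutation p = 1, n = 3 libraries each).

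These values carry limits of read sharing. C1ra and C1s1 lie 6901 bases apart on chromosome 6, at chr6:124512405-124523443 (plus strand) and chr6:124530345-124542359 (minus strand, mm10). Of the 75-base windows of C1ra, 40.1% are identical in C1rb, whose row was at 0 in every library, and 13% of those of C1s1 are identical in C1s2. A further 11.8% of the C1s1 windows lie in Gm16567, an antisense gene, and the library kit does not mark strand. The sources used here do not say how reads that match several genes were treated.

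Serping1 encodes C1 inhibitor, which blocks C1r and C1s, and lies at chr2:84765387-84775444 (minus strand, mm10). None of its 75-base windows occurs in another gene. It had 187, 202 and 160 TPM in siCLAP libraries 1 to 3, against 182, 173 and 204 TPM in siNC libraries 1 to 3. The groups overlapped, and this was the steadiest of the 9 genes, with the highest library only 1.27 times the lowest. Its log2 fold change was −0.01 ± 0.08 (edgeR, adjusted p = 0.982), with an interval of −0.17 to 0.16. The sign turned in 4 of 19 alternatives, where the largest value was 0.08 without siCLAP-3, and it was −0.02 without siNC-3 and siCLAP-2. The TPM of Serping1 over the summed TPM of C1ra and C1s1 was 24.0, 19.7 and 28.0 in the siCLAP libraries. In the siNC libraries it was 28.4, 36.0 and 25.3. This ratio compares transcripts, and protein levels were not analysed here. The groups overlapped in this ratio (exact permutation p = 0.2, and 0.3 adjusted over 3 ratios).

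C4b encodes complement C4, which the C1s protease cleaves. It stood at 40.7, 42.8 and 36.9 TPM in siCLAP libraries 1 to 3, against 42.0, 28.7 and 57.7 TPM in siNC libraries 1 to 3. The siNC libraries held both the highest (siNC-3) and the lowest (siNC-2), and the SD was 3.01 TPM in siCLAP and 14.6 TPM in siNC. The log2 fold change was −0.06 ± 0.18 (edgeR, adjusted p = 0.893). Its sign turned without siNC-3 (0.20), without siNC-3 and siCLAP-2 (0.16) and without siNC-1 and siNC-3 (0.48). C4b lies at chr17:34728380-34743882 (minus strand, mm10), and 22.7% of its 75-base windows are identical in the neighbouring C4a, whose level was 0.579 TPM on average. With both rows summed the change was −0.07.

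C2 and Cfb encode the serine proteases that pair with the C4 and C3 fragments in the classical and the alternative route. C2 had 2.50, 3.42 and 2.48 TPM in siCLAP libraries 1 to 3, against 3.31, 2.59 and 4.52 TPM in siNC libraries 1 to 3. Cfb had 2.57, 3.19 and 2.77 TPM in the siCLAP libraries, against 3.21, 2.54 and 4.85 TPM in the siNC libraries. For both genes siNC-3 was the highest library and the groups overlapped. Their log2 fold changes were −0.26 ± 0.20 and −0.26 ± 0.21 (edgeR, adjusted p = 0.538 and 0.559). Without siNC-3 they were −0.06 and −0.01, without siNC-3 and siCLAP-2 −0.22 and −0.09, and without siNC-1 and siNC-3 they turned to 0.09 and 0.15.

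The values of C2 and Cfb were close to each other in each library, with count ratios of C2 to Cfb of 0.937, 1.03 and 0.859 in siCLAP and 0.992, 0.980 and 0.897 in siNC. The genes are neighbours on the minus strand of chromosome 17, 85 bases apart, at chr17:34862604-34898265 and chr17:34856374-34862518 (mm10). The annotation also holds Gm20547, a gene that joins exons of both. All 3902 exonic bases of Gm20547 belong to C2 (1656 bases) or Cfb (2246 bases), and its row carries counts of its own. It shares 37.0% of the 75-base windows of C2 and 69.9% of those of Cfb. The deposited counts of Cfb were fractional in all 6 libraries and those of C2 in 5, but so were those of Serping1 in all 6, which shares no window, and the sources used here do not give the counting rule. The levels of C2 and Cfb are therefore uncertain, and how many of their reads went to Gm20547 was not tested. With the 3 rows summed, the change of the locus was −0.26 (edgeR, adjusted p = 0.509).

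C3 encodes the component at which the routes meet. It had 2.50, 3.40 and 1.57 TPM in siCLAP libraries 1 to 3, against 1.93, 1.07 and 2.77 TPM in siNC libraries 1 to 3. The highest library was siCLAP-2 and the lowest siNC-2, a range of 3.17 times that was the widest among the 9, and the groups overlapped. Its log2 fold change was 0.45 ± 0.32 (edgeR, adjusted p = 0.504), as large as that of Serpina3n but with an interval of −0.19 to 1.08. It moved to 0.13 without siNC-2, 0.18 without siCLAP-2, 0.76 without siNC-3 and 1.20 without siNC-1 and siNC-3, and stood at 0.49 without siNC-3 and siCLAP-2. C3 lies at chr17:57203970-57228136 (minus strand, mm10), and none of its 75-base windows occurs in another gene.

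**Figure D2:**
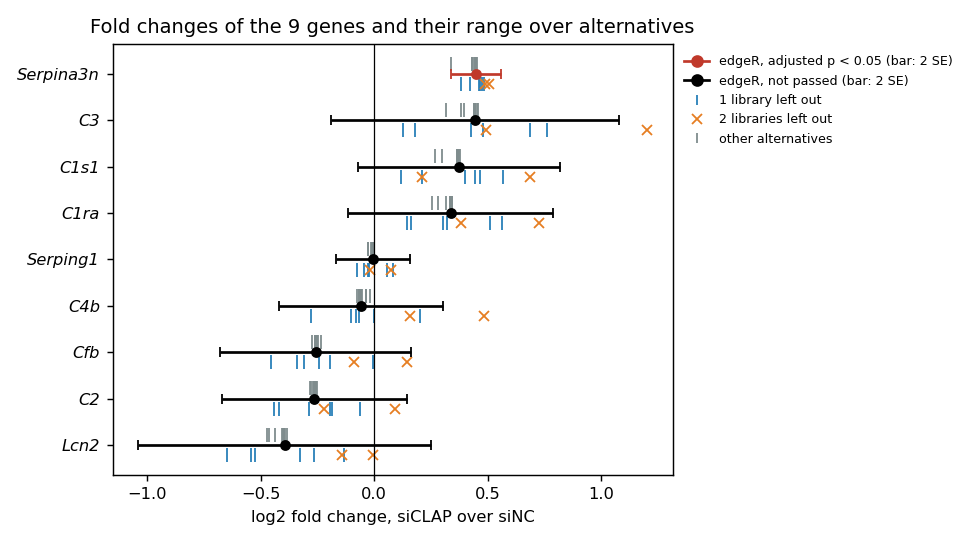
Log2 fold change of siCLAP over siNC for each gene in edgeR's test (circle, bar of 2 SE), with values without 1 library (blue), without 2 libraries (orange) and under the other alternatives (grey). The bar of Serpina3n, at 0.45, lies wholly above 0, and the bars of the other 8 genes cross it.

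Several of the complement genes shared the same high and low libraries. In TPM, siNC-3 was the highest of the 6 for 5 of the 9 genes (Lcn2, Serping1, C4b, C2 and Cfb), siCLAP-2 for 3 (C1ra, C1s1 and C3) and siCLAP-1 for Serpina3n. The lowest was siNC-2 for 6 of the 9. In total expected counts siNC-3 (21386768) and siCLAP-2 (25982046) were the smallest libraries, and siNC-2 (46317735) was the largest. The part of library size in these ranks was not tested. How often each library was highest or lowest over all genes is not given here, so the ranks cannot be called particular to the 9 genes. By the root mean square difference of log2 levels centred on each gene's mean over 6 libraries, C2 and Cfb were closest (0.0889), followed by C1ra and C1s1 (0.142), C4b and Cfb (0.155), C4b and C2 (0.18) and C1ra and C3 (0.20), while C3 and Lcn2 were the farthest apart (0.643).

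Some marker lists shared their highest or lowest library with some of the 9 genes, and others did not. The interferon list was highest in siNC-3 and siCLAP-2, as given above. The 14 tested genes of a 15-gene macrophage list summed to 87.1, 134 and 62.7 TPM in siCLAP libraries 1 to 3, against 92.7, 61.4 and 115 TPM in siNC libraries 1 to 3. The 11 tested genes of a 12-gene fibroblast list summed to 1663, 1782 and 1272 TPM in siCLAP, against 1583, 1038 and 1612 TPM in siNC. In the summed level of both lists siCLAP-2 was the highest and siNC-2 the lowest library, as for C1ra, C1s1 and C3. The fibroblast sum rested mostly on Apod and Dcn (787 and 312 TPM on average), and with all 11 genes weighted equally on the log2 scale siNC-3 was the highest library. The leptomeningeal list, with 9 of 13 genes tested, summed to 25.9 to 44.4 TPM in siCLAP, against 134, 38.9 and 152 TPM in siNC, so that siNC-1 and siNC-3 were the highest. All 9 estimates were negative, with a median log2 fold change of −1.10. In edgeR's test 6 of the 9 had an unadjusted p under 0.05 (lower in 8.75% of all genes), and 0 passed. The satellite glia list, with 12 of 12 genes tested, summed to 4633 to 5100 TPM in siCLAP and 4286 to 4690 TPM in siNC, mostly Apoe (3588 TPM on average). The Schwann cell list, with 12 of 12 tested, summed to 4265 to 4417 TPM in siCLAP and 4202 to 5407 TPM in siNC. Of its 12 estimates 11 were negative. Among all marker lists, edgeR's test called Ednrb of the satellite glia list higher (0.45, adjusted p = 0.0317). It called Egr2 of the Schwann cell list lower (−0.76, adjusted p = 0.0389), and Scn10a and Mrgprd of the sensory neuron list lower (−0.35 and −0.37, adjusted p = 0.0363 and 0.0397). Of all genes tested, 0.0731% were called higher and 0.219% lower. Most of the sensory neuron list went the other way, with 10 of 14 estimates positive and 4 negative. In edgeR's test 6 of the 14 were higher and 2 lower at an unadjusted p under 0.05 (all genes: 8.22% and 8.75%). The part of these marker genes in the levels of the 9 genes was not tested. Without siNC-1 and siNC-3, which leaves a single siNC library whose spread is taken to be like that of the siCLAP group, Serpina3n stood at 0.50 and did not pass (edgeR, adjusted p = 0.114).

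**Figure D3:**
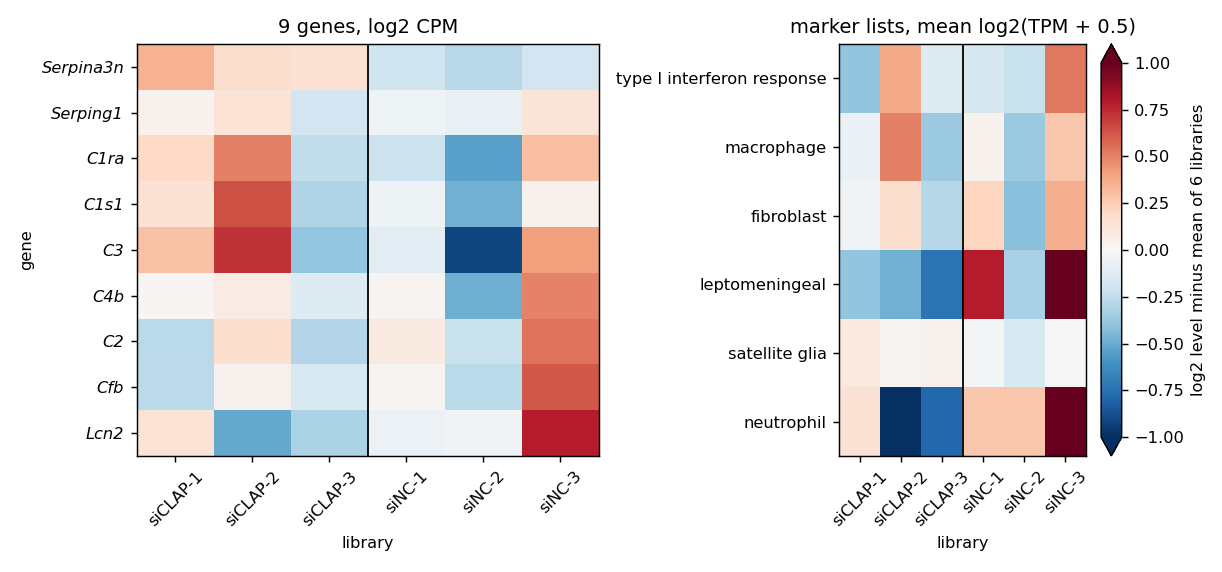
Log2 level minus the mean of the 6 libraries for the 9 genes (left, CPM) and for marker lists (right, mean of log2(TPM + 0.5) over the tested genes), with siCLAP left of siNC in each panel and values past the colour scale drawn at its end. Serpina3n is high in the siCLAP libraries, whereas C1ra, C1s1 and C3 are highest in siCLAP-2 and lowest in siNC-2, and C4b, C2, Cfb and Lcn2 are highest in siNC-3.

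Promoters of C1ra, C1s1 and C3 are shown because these 3 genes followed the same order of libraries at the extremes. They are RefSeq sequences on GRCm38.p6 from 250 bases before to 50 after the start, at chr6:124512371-124512670 (plus strand), chr6:124542310-124542609 (minus strand, the first of 2 entries for this gene) and chr17:57228087-57228386 (minus strand). The capitals mark the motif matches, with the same 5 motifs searched.

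C1ra: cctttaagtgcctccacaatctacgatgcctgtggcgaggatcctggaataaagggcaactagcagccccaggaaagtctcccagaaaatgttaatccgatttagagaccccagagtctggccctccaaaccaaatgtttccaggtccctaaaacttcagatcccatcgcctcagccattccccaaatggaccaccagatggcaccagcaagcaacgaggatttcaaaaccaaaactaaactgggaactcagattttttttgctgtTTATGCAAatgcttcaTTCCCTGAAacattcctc

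C1s1: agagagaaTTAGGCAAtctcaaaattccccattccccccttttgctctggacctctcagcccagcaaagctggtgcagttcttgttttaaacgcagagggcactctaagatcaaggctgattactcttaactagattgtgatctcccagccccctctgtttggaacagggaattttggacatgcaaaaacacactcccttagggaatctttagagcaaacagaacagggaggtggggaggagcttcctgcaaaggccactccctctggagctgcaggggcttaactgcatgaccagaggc

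C3: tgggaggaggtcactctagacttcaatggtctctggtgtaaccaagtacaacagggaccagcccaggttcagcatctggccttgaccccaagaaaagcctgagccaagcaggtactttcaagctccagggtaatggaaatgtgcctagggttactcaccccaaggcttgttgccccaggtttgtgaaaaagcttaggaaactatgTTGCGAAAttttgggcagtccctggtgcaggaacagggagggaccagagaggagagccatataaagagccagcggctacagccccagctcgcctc

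Each of the 3 windows shown held a match to TTGCNNAA, which 10.8% of all promoters hold, but the second entry for C1s1, at chr6:124542272-124542571, held none. That of C1ra also held a match to TTCNNNGAA (8.30%). In C3 the match lay at positions −45 to −38 from the start, in C1s1 at −242 to −235, and in C1ra after the start. For C1ra the GENCODE gene begins at chr6:124512405, before the RefSeq start used here, so most of its window falls inside the GENCODE gene. The table of promoters held entries for 5 of the 9 genes, and none for Serping1, C4b, C2 and Cfb. The fifth gene, Lcn2, did not share the library order of the 3 genes or the call of Serpina3n, and its window (not shown) held matches to both TTGCNNAA and ACANNNTGT.

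Genes most like each of the 9 in their pattern over the 6 libraries were sought by the same root mean square difference, among 12408 genes averaging 5 TPM or more. Serpina3n was closest to Pvalb (0.0582), Npy1r (0.0585) and Pgf (0.0660). Serping1 was closest to Serpinb9, Cebpd and Mafk (0.0247 to 0.0380), and C4b to Ecm1 and Mir707 (0.0575 and 0.0658). C2 was closest to Tor3a, Herc6 and Tmem140 (0.102 to 0.111), and Cfb to Dhx58, Tor3a and Tmem140 (0.0951 to 0.106). C1s1 was closest to Mmp2, Dcn and Crispld2 (0.131 to 0.144), C1ra to Mir7091, Mir7001 and B2m (0.0993 to 0.144), C3 to Mmp2, Mir7091 and C1qa (0.153 to 0.190), and Lcn2 to Hspa1a, Serpinh1 and Tgm2 (up to 0.131). The microRNA genes lie on the same strand within Dnase1l1 (Mir7091), Cd82 (Mir7001) and Akt1s1 (Mir707, all 73 of its bases exonic), so their values cannot be told apart from reads of these host genes. With 6 libraries and so many candidates, close matches can arise in any gene.

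The rest of the complement system and of the acute phase response was read from 10 lists. Beside the 9 genes they held 115 genes, of which 57 reached a mean TPM of 1 and were tested. Of these 57, 0 rose and 1 fell in edgeR's test, beside 0.0731% and 0.219% of all genes. These shares also stand beside the counts of each list below. At an unadjusted p under 0.05, 4 of the 57 were higher and 8 lower (all genes: 8.22% and 8.75%). DESeq2 called 4 of the 57 lower and 0 higher, beside 369 lower and 239 higher of all 19141 genes. It gave no adjusted p for some genes, Il6ra, Serpina3c, Itgb2 and C7 among them, and these count as not called. The median log2 fold change of the 57 was −0.03.

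In the classical list the C1q genes C1qa, C1qb and C1qc, which encode the recognition subunit and are made mainly by macrophages, stood at 0.20 ± 0.28, 0.12 ± 0.28 and 0.11 ± 0.31, and their signs turned without siCLAP-2 (−0.12, −0.24 and −0.21). In the lectin list Masp1, Masp2 and Colec12 stood at 0.07, −0.06 and −0.11, the last turning to 0.15 without siCLAP-3, and the other 6 genes were below the filter. Cfp, the properdin that stabilises the alternative route enzyme, had 11.0 ± 1.56 TPM in siCLAP and 13.7 ± 2.53 TPM in siNC (log2 fold change −0.28 ± 0.15, adjusted p = 0.351 in edgeR, and −0.14 without siNC-3). Of the 7 terminal pathway genes only C7 and C8g were tested, at −0.13 ± 0.18 and 0.17 ± 0.28.

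Of the 13 tested regulator genes, 0 passed in either direction. Levels of the membrane regulators ranged widely, with Cd46 and Cd59b at 2.27 and 2.46 TPM on average, near the proteases C1ra and C1s1. Cd55, which speeds the decay of the C3 cleaving enzymes, had 425 ± 17.3 TPM in siCLAP and 495 ± 23.9 TPM in siNC, with groups that did not overlap, and stood at −0.21 ± 0.05 without passing (edgeR, adjusted p = 0.0951; DESeq2, 0.00802). Cd59a, which blocks the terminal complex, had 126 ± 3.49 TPM in siCLAP and 116 ± 5.57 TPM in siNC (0.13 ± 0.05, adjusted p = 0.213 in edgeR). Vtn, the plasma and matrix protein vitronectin, had 6.92 ± 0.628 TPM in siCLAP and 12.4 ± 4.08 TPM in siNC (−0.79 ± 0.22, adjusted p = 0.11 in edgeR). It was highest in siNC-1 and siNC-3, at 14.9 and 14.7 TPM, as was the leptomeningeal list, whose part in the level of Vtn was not tested. DESeq2 called Vtn lower in siCLAP (adjusted p = 0.00734), as did edgeR without siNC-2 (−1.06, adjusted p = 0.0105). Without siNC-1 and siNC-3, however, the estimate for Vtn shrank to −0.15. The siNC-2 library, at 7.71 TPM, lay near the siCLAP libraries (6.36 to 7.60 TPM). Among the receptors, C3ar1, Itgb2 and Cd93 were tested and stood at 0.07 ± 0.26, −0.35 ± 0.38 and 0.15 ± 0.12.

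Among 14 tested secreted acute phase genes Serpina3n alone passed. The metallothioneins Mt2 and Mt1 stood at −0.46 ± 0.20 and −0.21 ± 0.12, and A2m, alpha-2-macroglobulin, and Steap4, a metalloreductase, at 0.21 ± 0.10 and 0.28 ± 0.20. These estimates depended on single libraries, with Mt2 at −0.16 without siNC-2, Mt1 at −0.11 without siCLAP-3 and −0.33 without siCLAP-1, and A2m and Steap4 at 0.13 and 0.07 without siCLAP-2. The serum amyloid genes Saa1, Saa2 and Saa3 were below the filter, with mean levels of 0.335, 0.262 and 0.283 TPM, and Saa4, Apcs and Fgb were at 0 in every library.

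Of the signalling genes upstream of the acute phase response, Il6st fell. It encodes gp130, the receptor subunit shared by interleukin-6, oncostatin M and leukemia inhibitory factor. Il6st had 149, 147 and 163 TPM in siCLAP libraries 1 to 3, against 211, 186 and 211 TPM in siNC libraries 1 to 3. Every siCLAP library was below every siNC library, and the log2 fold change was −0.39 ± 0.06 (edgeR, adjusted p = 0.0268). The call ended without siCLAP-1 (0.192), siCLAP-2 (0.0505), siNC-1 (0.0666) or siNC-3 (0.123), without siNC-3 and siCLAP-2 together (estimate −0.33, adjusted p = 0.177), without siNC-1 and siNC-3 together (0.346) and with limma on log2(TPM + 0.5) (0.157), while the estimate stayed negative in all 19 alternatives. Il6ra, the ligand-binding subunit of the interleukin-6 receptor, had 1.79 ± 0.269 TPM in siCLAP and 2.88 ± 0.302 TPM in siNC (−0.66 ± 0.15, adjusted p = 0.0834 in edgeR). Osmr, the oncostatin M receptor subunit, stood at −0.26 ± 0.05 (adjusted p = 0.0524 in edgeR) and was called lower in 10 of 19 alternatives, DESeq2 among them (adjusted p = 0.000891). Nfkbia, the inhibitor of NF-kappa B, stood at −0.31 ± 0.09 (edgeR, adjusted p = 0.123). The transcription factor Stat3 stood at −0.06 ± 0.04, and Il6, Lif, Osm, Il1a, Il1b and Tnf, the ligands of the list, were all below the filter, at 0.0429 to 0.339 TPM on average.

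**Figure D4:**
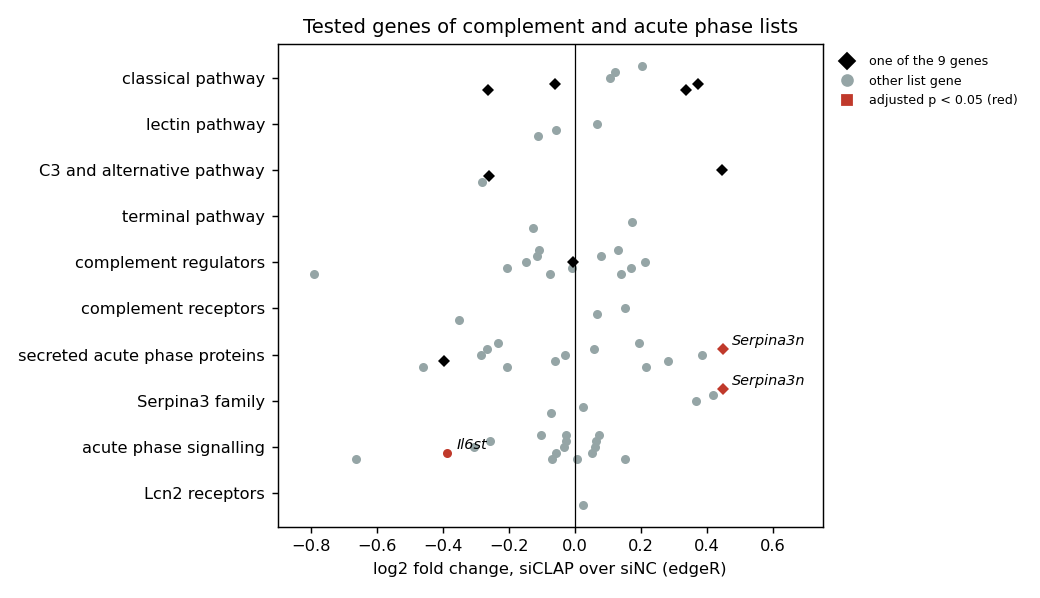
Log2 fold change of siCLAP over siNC in edgeR's test for each tested gene of 10 complement and acute phase lists, with the 9 genes as diamonds and genes at an adjusted p under 0.05 in red. Serpina3n (0.45, drawn in both lists that hold it) lies to the right and Il6st (−0.39) to the left, and the other points did not pass.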

How the data were processed

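RNA from 6 DRG libraries (3 siCLAP, 3 siNC) was made into libraries with a NEBNext Ultra kit, per the labels' protocols. The submitters' processing notes name mm10, HISAT2 2.1.0, FastQC 0.11.8 and featureCounts 1.6.2, while annotation, strand setting and the rule for multiply matching reads are not given in the sources. Each deposited file lists a TPM value and an expected count for 48401 symbols, with 66.5% of the deposited counts whole within 1e-06.

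Expected counts were rounded and tested in R 4.3.3 by the quasi-likelihood test of edgeR 4.0.16 (TMM scaling, no covariate) over the 19141 genes averaging 1 TPM or more, with Benjamini-Hochberg adjustment at 0.05. All 9 genes passed this filter. Standard errors are the fold change over the root of its F value, and intervals are 2 standard errors. The script was tested on simulated counts. With 3 against 3 libraries an exact permutation p cannot go below 0.1. Alternatives used DESeq2 1.42.0, limma 3.58.1, other scalings and filters, the replicate block and libraries left out. DESeq2 left some genes, Lcn2, C1s1, C2 and Cfb among them, without an adjusted p, and these count as not called. Of 19 alternatives, summed rows and robust edgeR settings were chosen after seeing the data.

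Libraries of a group differed by a mean chi-square of 4.12 to 9.15 per gene, more than counting noise. The 9 genes, the lists and the 2 sets of libraries left out together were chosen with earlier results of these data known. Named list genes are those with the 4 smallest p in each list, and Stat3, the interleukin and amyloid genes, Serpina1a, Apoa1, Alb, Cd46, Cd59b and the marker list genes were named after their values were seen. Sequences and promoters are from RefSeq (GRCm38.p6), gene positions and transcripts from GENCODE M21.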

Additional observations from a re-analysis of the deposited data

How the results depend on the processing

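Of the 9 genes 0 were called with limma on log2(TPM + 0.5) or log2(TPM + 0.1) and without siNC-1 and siNC-3, and 0 to 1 with 1 library left out. Serpina3n stood at 0.43 in both limma fits (adjusted p = 0.157 and 0.158), at 0.50 without siNC-1 and siNC-3, and at 0.38 to 0.49 with 1 library left out. Over all genes, 56 were called, against 608 with DESeq2, 0 and 0 with the limma fits (3028 and 3017 at an unadjusted p under 0.05), 135 with a filter of 0.1 TPM, 826 with no filter, 118 with a filter of 5 TPM, 133 with robust settings, 13 without siNC-3 and siCLAP-2, 13 without siNC-1 and siNC-3, and 0 to 340 with 1 library left out (0 without siCLAP-1, where 1960 had an unadjusted p under 0.05, then 340 without siCLAP-3, 157 without siNC-2 and 4 without siNC-3). With the replicate number as a block 203 genes were called, Serpina3n among them at 0.45 (adjusted p = 0.0189). Whether same-numbered libraries were paired is not settled here. Deviations of same-numbered libraries correlated over genes at −0.0377 to 0.0508, and siCLAP-2 and siCLAP-3 did not correlate best with their own number. Such correlations cannot decide it, because each deviation was taken from the mean of only 3 libraries.

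Among the list genes, here with the 9 genes counted in, 1 rose (Serpina3n) and 1 fell (Il6st), beside 0.0731% and 0.219% of all genes. The number that rose was 0 with the limma fits and 0 to 1 with 1 library left out. The number that fell was 2 with RLE or upper-quartile factors, filters of 0.1 or 5 TPM, summed rows and robust settings, 3 with the block, 4 with DESeq2, 7 with no filter, 0 with the limma fits and without either set of 2 libraries, and 0 to 2 with 1 library left out.

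Signs turned for some genes that did not pass. Without siNC-3 and siCLAP-2 the values were 0.16 for C4b, −0.0068 for Serpina3g, −0.10 for C1qb, 0.0324 for Itgb2, 0.0325 for C7, −0.13 for C3ar1 and −0.058 for C8g. Without siNC-1 and siNC-3 they were 0.0749 for Serping1, 0.48 for C4b, 0.0929 for C2, 0.15 for Cfb, −0.0213 for Slc22a17, −0.0525 for Serpina3g, 0.18 for Itgb2, 0.49 for Colec12 and −0.0987 for C8g. Serping1 was at 0.00058 with a filter of 0.1 TPM. With 1 library left out, ranges were −0.0783 to 0.0837 for Serping1, −0.28 to 0.20 for C4b, −0.12 to 0.45 for C1qa, −0.24 to 0.32 for C1qb, −0.21 to 0.37 for C1qc, −0.27 to 0.28 for C3ar1, −0.61 to 0.18 for Itgb2, −0.38 to 0.15 for Colec12, −0.036 to 0.39 for C8g, −0.13 to 0.0091 for Masp2 and −0.14 to 0.0626 for Serpina3h. The causes were not tested. Lcn2 rests on 10 to 25 counts and C2, Cfb, C1s1, C1ra and C3 on 74 to 194, which limits their precision.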
